A study of Oryza sativa Indica Group with 5 samples.

Results

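Alpha-amylases and the glucan-water dikinase GWD1 are the enzymes followed here in developing rice seed. The 9 loci are the RAmy1 to RAmy4 classes of alpha-amylase (8 loci) and GWD1 (1 locus), out of 48857 loci on the array. The rule that picks them uses locus names and not measured values, though it was chosen with earlier results of these data known. All 9 had a probe, 11 probes in all, and 8 loci passed the filter on dim probes and were tested.

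Alpha-amylases are secreted endo-hydrolases that cut the internal alpha-1,4 links of starch, and in cereal grain they are best known from germination, when aleurone and scutellum release them into the endosperm. They are also transcribed in ripening rice grain, where high temperature is known to raise several of them and where starch broken down during filling is linked to chalky endosperm. GWD1 adds phosphate to glucan chains at the surface of the starch granule, a step known chiefly from leaf starch that opens the granule to hydrolases.

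The study measured RNA of whole developing seed from 5 rice accessions (Oryza sativa, Indica group), taken 16 days after flowering and hybridised to 1 single-colour Agilent array each. The 3 accessions of haplotype 8 have high-amylose grain, and the 2 of haplotype 4 have waxy grain, in which amylose is scarce or missing. Day and night temperatures of 29 and 21 °C were held for all plants in a phytotron glasshouse, and no treatment, heat included, was applied. Each group is a set of different accessions with 1 sample each, and replicate numbers only name them, so the spread within a group holds genetic differences as well as technical ones.

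Signal is given as log2 of the processed intensity relative to the array's 75th percentile, so that 0 is the 75th percentile itself, and it compares arrays for 1 probe but not 1 probe with another. Arrays of high-amylose replicates 2 and 3, which share a scan date, were the dimmest, with a 75th percentile of 88.8 to 108.1 against 183.5 to 211.7 on the other 3. High-amylose replicate 1 was the only array of its scan date. Both waxy arrays share a further scan date that no high-amylose array has, and a group effect thus cannot be told apart from a scan effect. The 6 endosperm markers were well above background on every array, as were the 3 markers of embryo and aleurone, so the labelled tissue carried its defining transcripts. The Waxy transcript, whose product makes amylose, stood between 7.96 and 8.46 on the high-amylose arrays, at 8.21 on waxy replicate 1 and at 3.70 on waxy replicate 2, so the 2 waxy accessions were unlike each other at this locus. Whole seed was extracted, and fewer cells of a type and less RNA per cell cannot be told apart in such material.

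Neither GWD1 nor any alpha-amylase locus differed between high-amylose and waxy seed beyond the spread between accessions. Of the 8 tested loci, 0 passed in either direction (limma, Benjamini-Hochberg adjusted over 28963 loci), where 8 loci of the whole array (0.0276%) did, with 0.0104% higher and 0.0173% lower. The 10 tested probes of these loci gave 0 calls as well, against 0.0196% of all tested probes. None of the 8 had an unadjusted limma p under 0.05 either, against 3.39% of all loci, and at none did the 3 high-amylose values lie apart from the 2 waxy values, against 13.6% of all loci. The differences that the intervals leave possible are wide, from 2.67 lower to 1.64 higher on the log2 scale at RAmy3A and from 1.36 lower to 0.65 higher at RAmy2A. The missed threshold therefore does not show that the groups are alike.

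**Figure D1:**
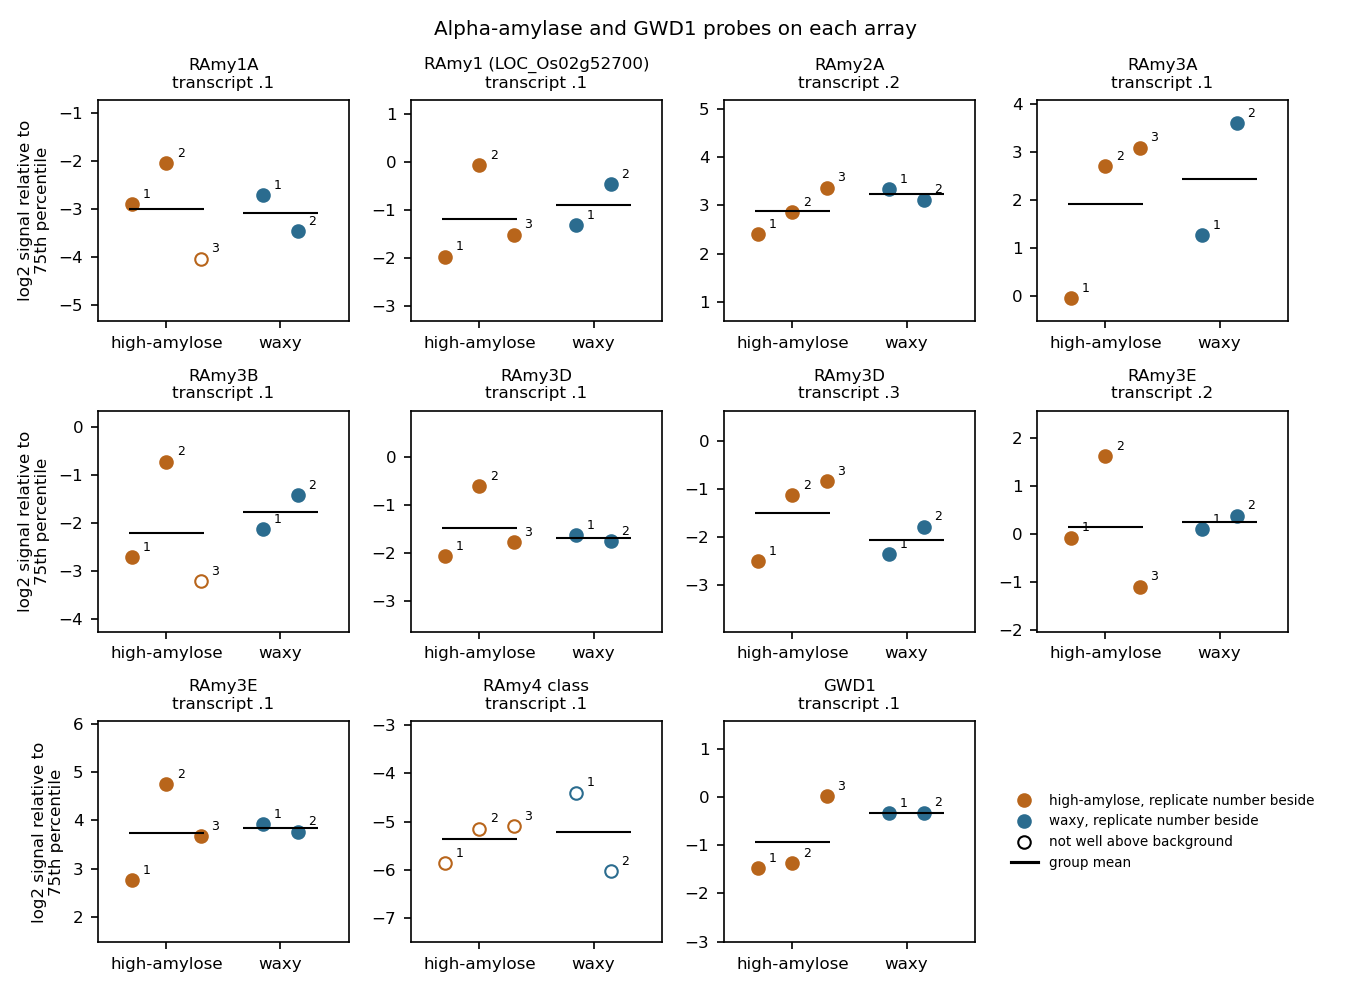
Log2 signal relative to the array's 75th percentile (y axis, each panel spanning the same number of log2 units) of the 11 probes for 8 alpha-amylase loci and GWD1, by group, with 1 point per array and its replicate number beside it. Horizontal lines are group means and open points were not well above background; in every panel the high-amylose points overlap the waxy points, and RAmy3A has the widest spread, from -0.04 to 3.61.

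The RAmy1 class holds the amylase made in germinating aleurone in response to gibberellin, RAmy1A (LOC_Os02g52710, chromosome 2), and a second locus beside it, LOC_Os02g52700. RAmy1A stood at -2.90, -2.05 and -4.03 on high-amylose replicates 1, 2 and 3 and at -2.72 and -3.46 on waxy replicates 1 and 2. It was dim on all 5 arrays and not well above background on high-amylose replicate 3, which held the lowest value, while replicate 2 held the highest. The group means were -2.99 ± 1.00 (SD, n = 3) and -3.09 ± 0.53 (SD, n = 2), a log2 difference of 0.09 (SE 0.60, limma adjusted p = 1.00). That difference turned to -0.38 without high-amylose replicate 2 and to -0.28 without waxy replicate 2.

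LOC_Os02g52700 stood at -1.98, -0.07 and -1.52 in high-amylose seed and at -1.32 and -0.48 in waxy seed. High-amylose replicate 2 was again the highest, here with replicate 1 the lowest, and the waxy values lay between them. The difference was -0.29 (SE 0.60, limma adjusted p = 1.00). Without high-amylose replicate 1 it was 0.11, and without waxy replicate 2 it was 0.14. A 1.80-fold gap lay between the waxy accessions, and the high-amylose accessions spanned 3.75-fold.

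RAmy2A (LOC_Os06g49970, chromosome 6) is the RAmy2 class's locus in the set. Its signal was 2.41, 2.86 and 3.37 in high-amylose seed and 3.34 and 3.12 in waxy seed. It was well above background on all 5 arrays and varied least of the tested loci, 1.95-fold from lowest to highest, a range that 62.4% of all tested loci exceeded. High-amylose replicates 1 and 2 lay below both waxy arrays and replicate 3 lay just above them. The difference was -0.35 (SE 0.45, limma adjusted p = 1.00), or 1.28-fold lower in high-amylose seed. It kept its sign in every alternative fit, though fits that changed only the choice of probes could not move it. Its size varied, with -0.12 without high-amylose replicate 1, -0.60 without replicate 3 and -0.82 with replicate 1 as the only high-amylose array.

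The RAmy3 class holds 4 of the 9 loci, as 2 pairs of neighbours, RAmy3A and RAmy3B on chromosome 9 and RAmy3E and RAmy3D on chromosome 8, with 0 genes between the members of a pair in RefSeq. RAmy3D is known as an amylase gene switched on by sugar starvation in cultured rice cells. RAmy3A (LOC_Os09g28400) varied most of all. High-amylose seed gave -0.04, 2.71 and 3.10 and waxy seed gave 1.27 and 3.61, with all 5 arrays well above background. High-amylose replicate 1 was far below the other 4, and waxy replicate 1 stood between it and the rest, so each group held both a low and a high accession.

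RAmy3A spanned 12.5-fold over the 5 arrays, a range that 2.50% of tested loci exceeded, with 8.79-fold among the high-amylose accessions and 5.05-fold between the 2 waxy accessions. The waxy gap was exceeded by 1.74% of tested loci. Between groups RAmy3A differed by -0.52 (SE 0.96, limma adjusted p = 1.00). The sign depended on single arrays, with 0.46 without high-amylose replicate 1, 0.65 without waxy replicate 2 and -1.69 without waxy replicate 1, the last 2 fits each leaving 1 waxy array.

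RAmy3B (LOC_Os09g28420), the neighbour of RAmy3A in the family, did not share its profile. It stood at -2.72, -0.73 and -3.21 in high-amylose seed, where replicate 3 was not well above background, and at -2.13 and -1.42 in waxy seed. Both waxy arrays lay between high-amylose replicates 1 and 2, which were well above background. The difference was -0.44 (SE 0.70, limma adjusted p = 1.00), and 0.05 without high-amylose replicate 3.

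RAmy3E (LOC_Os08g36900) has probes for 2 transcripts. The probe of transcript 1 read 2.76, 4.76 and 3.68 in high-amylose seed and 3.92 and 3.77 in waxy seed. The high-amylose arrays thus spread 3.99-fold around 2 waxy arrays that were 1.11-fold apart. The difference was -0.11 (SE 0.58, limma adjusted p = 1.00), and it was 0.38 without high-amylose replicate 1. The probe of transcript 2 read -0.07, 1.63 and -1.09 in high-amylose seed and 0.11 and 0.39 in waxy seed. Both probes were highest on high-amylose replicate 2, but the lowest array was replicate 1 at the first probe and replicate 3 at the second, whose difference was -0.09 (SE 0.71, limma adjusted p = 1.00).

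RAmy3D (LOC_Os08g36910) was likewise read by 2 probes. The probe of transcript 1 gave -2.08, -0.62 and -1.78 in high-amylose seed and -1.64 and -1.76 in waxy seed. High-amylose replicate 2 alone stood above the other 4, which lay within a narrow band. Its difference was 0.21 (SE 0.51, limma adjusted p = 1.00), and -0.23 without high-amylose replicate 2. The probe of transcript 3 gave -2.50, -1.12 and -0.84 in high-amylose seed and -2.35 and -1.78 in waxy seed. There replicates 2 and 3 both lay above the waxy arrays and replicate 1 below them, with a difference of 0.57 (SE 0.56, limma adjusted p = 1.00), the largest positive difference among the 10 tested probes. High-amylose replicate 3 thus ranked among the lower arrays at one RAmy3D probe and highest at the other.

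The RAmy4 class locus, LOC_Os01g25510 on chromosome 1, did not rise well above background anywhere, at -5.87, -5.15 and -5.09 in high-amylose seed and -4.40 and -6.03 in waxy seed. It was not tested, and these values carry no order. The alpha-amylase loci are related in sequence, and neither cross-hybridisation nor the meaning of the probe classes was tested, so values of single paralogs are uncertain.

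GWD1 (LOC_Os06g30310, chromosome 6) had the group difference farthest from 0 of the 8 loci on this scale, while RAmy3A was farther under quantile scaling (-0.61 against -0.59), in the deposited log2 values (-0.60 against -0.57) and under normexp (-0.68 against -0.31). Its signal was -1.47, -1.37 and 0.03 in high-amylose seed and -0.33 and -0.32 in waxy seed. High-amylose replicates 1 and 2 lay below both waxy arrays and replicate 3 above them, while the waxy accessions were 1.00-fold apart, a gap that 99.1% of all tested loci exceeded. The difference was -0.61 (SE 0.53, 95% interval -1.80 to 0.58), or 1.53-fold lower in high-amylose seed, and it did not pass (limma adjusted p = 1.00). Its sign held in every alternative fit, with values from -1.15 to -0.31, though fits that changed only the choice of probes could not move it. Without high-amylose replicate 3 it was -1.10, and without replicate 1 it was -0.35.

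As a group, 6 of the 8 tested loci were lower and 2 higher in high-amylose seed, with a median log2 difference of -0.32, where 46.1% of all tested loci were lower, 53.9% were higher and the median over them was 0.03. Of the 7 tested amylases 5 were lower, with a median of -0.29 that turned to 0.07 under normexp background correction and to 0.11 without high-amylose replicate 1. The side on which the members fell moved with single arrays. Without high-amylose replicate 1, 3 of 8 were lower, and without replicate 2 all 8 were. With replicate 1 as the only high-amylose array, 7 of 8 were lower with a median of -1.01, RAmy1A being the exception at 0.19. No member passed in any of these fits.

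**Figure D2:**
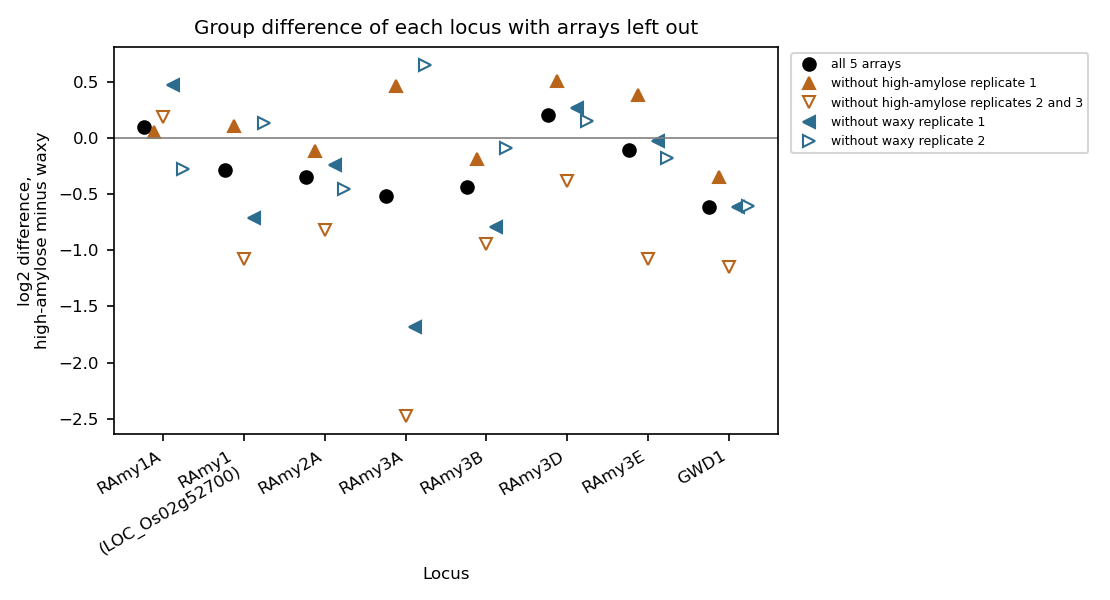
Fitted log2 difference, high-amylose minus waxy (y axis), of the 8 tested loci (x axis) with all 5 arrays and with the named arrays left out. Without high-amylose replicate 1 the points lie between -0.35 and 0.50, and with replicate 1 as the only high-amylose array they lie between -2.48 and 0.19.

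The median range among the 3 high-amylose arrays was 1.95 on the log2 scale for the 8 loci, against 0.97 for all tested loci. High-amylose replicate 1 held the lowest of the 5 values at 6 of 8 loci (30.6% of all tested loci), namely LOC_Os02g52700, RAmy2A, RAmy3A, RAmy3D, RAmy3E and GWD1. High-amylose replicate 2 held the highest at 5 of 8 (21.3% of all tested loci), all of them amylases: RAmy1A, LOC_Os02g52700, RAmy3B, RAmy3D and RAmy3E. These counts use 1 probe a locus. At the other RAmy3D probe high-amylose replicate 3 was highest, and at the other RAmy3E probe replicate 3 was lowest. The counts were chosen after the values were seen and are given as a description.

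The summed signal of the 3 markers of embryo and aleurone, in units of the array's 75th percentile, was 829, 1160 and 522 in high-amylose seed and 490 and 643 in waxy seed, so high-amylose replicate 2 was highest there too. By single markers replicate 2 was highest at 2 of 3, while OLE18 was highest on replicate 1 (log2 signal 7.32 against 7.18). High-amylose replicate 1, the lowest at 5 of the 7 tested RAmy loci, was second highest in the sum. All 3 markers were well above background on every array. The 5 markers of the green outer layers summed to 0.753, 3.68 and 10.2 in high-amylose seed and to 0.552 and 0.910 in waxy seed, with 1, 4 and 5 of them well above background in high-amylose seed and 1 and 2 in waxy seed. The 6 endosperm markers summed to 1060 to 1390 in high-amylose seed and to 863 to 1160 in waxy seed. Such a sum is weighted to the brightest markers, Waxy among them, which was at 3.70 on waxy replicate 2. By single markers 4 of 6 were lower in high-amylose seed and 2 higher, with a median log2 difference of -0.32. The part of these tissues in the amylase values was not tested.

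**Figure D3:**
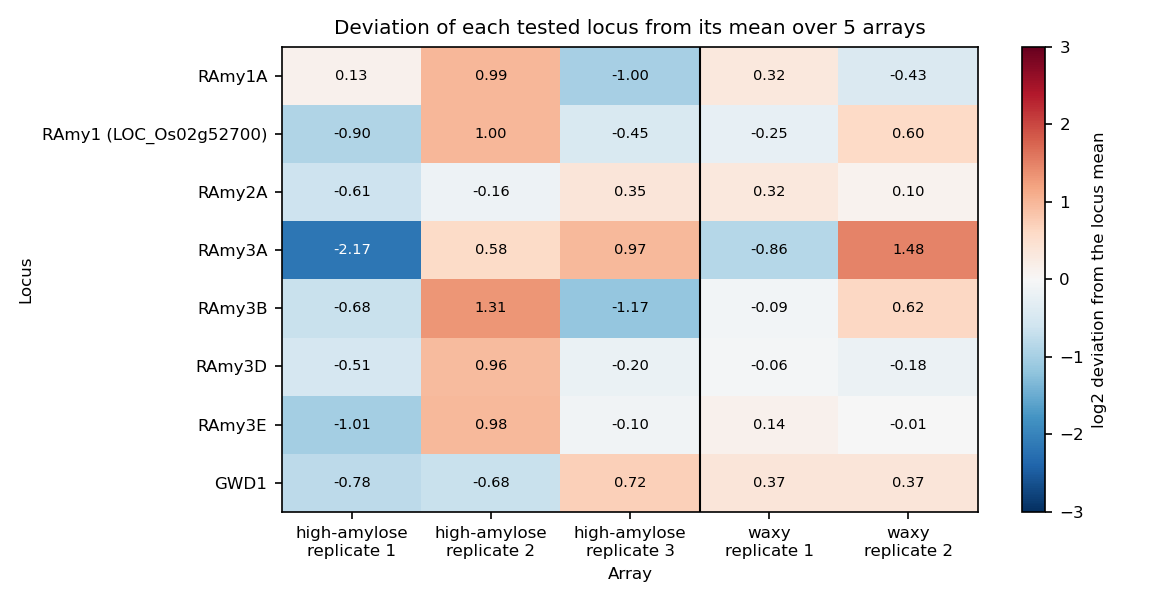
Deviation of each tested locus (rows) from its own mean over the 5 arrays (columns), on the log2 scale, printed in each cell and shown by colour, with a line between high-amylose and waxy arrays. The column of high-amylose replicate 1 is negative for all loci but RAmy1A (0.13), and that of replicate 2 is near 1 or above for 5 amylases.

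Profiles over the 5 arrays, each locus taken relative to its own mean, were compared by their root mean square distance among the 28 pairs of tested loci. The nearest pair was RAmy3D and RAmy3E, the chromosome 8 neighbours, at 0.262 between their transcript 1 probes, but the other 3 pairings of their probes gave 0.563 or more, behind several other pairs. RAmy2A and GWD1 came next at 0.317. The chromosome 9 neighbours RAmy3A and RAmy3B were the second most distant pair at 1.32, and the 2 RAmy1 loci stood in the middle at 0.742. RAmy1A and RAmy3A were the most distant at 1.69. The distance is not scaled to how much a locus varies, and RAmy3A, with the widest range, was in both of these far pairs. Its large distances therefore reflect that range as well as any unlike profile. With 5 arrays such distances only describe these accessions.

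Among 26 tested loci of the other starch breakdown genes and amylase regulators, the profile nearest to GWD1 was that of SLR1 (0.465), the DELLA repressor of gibberellin responses. The beta-amylase LOC_Os07g47120 (0.473) and MYBS1 (0.540), a MYB protein that binds amylase promoters, followed. Nearest to RAmy3E, the second locus for which this was done, were SLR1 again (0.498) and the beta-amylases LOC_Os10g41550 (0.515) and LOC_Os03g22790 (0.518). The median distance over the 26 loci was 0.871 for GWD1 and 0.859 for RAmy3E. Because the distance is not scaled to how much a locus varies, a nearly flat locus can rank near. MYBS1 spanned only 1.32-fold over the 5 arrays, a range that 98.1% of tested loci exceeded. These ranks therefore do not show that a regulator or beta-amylase shares a profile with GWD1 or RAmy3E.

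The 26 tested loci of the other lists, 19 of them starch breakdown genes and 7 regulators or inhibitor, held 0 past the threshold (limma, 0.0276% of all loci) and 0 at an unadjusted p under 0.05 (3.39% of all loci). Beta-amylases, which release maltose from chain ends, were tested at 8 of 10 loci, with 4 higher, 4 lower and a median log2 difference of -0.01. The even split depended on the scale, since 6 of the 8 were lower under quantile scaling, in the deposited log2 values and under normexp. LOC_Os01g13550 was at -0.57 (SE 0.46) and LOC_Os02g03690 at 0.39 (SE 1.05), the latter well above background only on high-amylose replicate 3 and waxy replicate 1. LOC_Os10g41550 was at -0.11 (SE 0.68) and LOC_Os07g47120 at 0.10 (SE 0.46). Of 3 further alpha-amylase loci 2 were tested, LOC_Os04g33040 at -0.76 (SE 0.53) and LOC_Os01g51754 at -0.09 (SE 0.41).

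The remaining breakdown list held the dikinase PWD, which acts after GWD1, the glucan phosphatase SEX4, the debranching enzymes ISA3 and pullulanase, the glucanotransferases DPE1 and DPE2, the phosphorylases PHO1 and PHO2, the maltose transporter MEX1 and 2 alpha-glucosidases. Of these 11 loci 9 were tested, all but pullulanase and MEX1, with 7 lower, 2 higher and a median of -0.55. DPE1, a plastid disproportionating enzyme that works on short glucans, stood at 1.64, 0.10 and -0.73 in high-amylose seed and at 1.42 and 1.18 in waxy seed. Its highest value was on high-amylose replicate 1 and its lowest on replicate 3, with both waxy arrays between. The difference was -0.96 (SE 0.64, limma adjusted p = 1.00). The isoamylase ISA3, which debranches glucans during breakdown and was not well above background on high-amylose replicate 3, was at -0.74 (SE 0.75), the cytosolic glucanotransferase DPE2 at -0.70 (SE 0.54) and the phosphorylase PHO2 at -0.68 (SE 0.50). With high-amylose replicate 1 as the only high-amylose array these 4 turned to 0.35, 0.95, 0.28 and 0.05, in the order DPE1, ISA3, DPE2 and PHO2.

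That list and the 7 tested RAmy loci stood opposite on high-amylose replicate 1. That array held the highest value at 6 of the 9 enzymes and at 0 of the 7 RAmy loci. It held the lowest value at 0 of the 9 and at 5 of the 7. Over all tested loci it was highest at 19.5% and lowest at 30.6%. The median deviation on that array was 0.66 for the 9 enzymes and -0.68 for the RAmy loci. It was 0.39 for the 2 other tested alpha-amylases and 0.07 for the 8 tested beta-amylases, so the contrast does not extend to all amylases. GWD1 deviated by -0.78 there. Of the 6 endosperm markers, 4 were highest on that array. The counts describe 1 accession on the only array of its scan date, so accession and scan date cannot be told apart here. They were chosen after the values were seen and were not tested.

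Regulators of amylase genes and the amylase inhibitor RASI were tested at 7 of 9 loci, with 5 lower, 2 higher and a median of -0.22. GAMYB (LOC_Os01g59660), the gibberellin-regulated MYB activator of RAmy1A, stood at -1.74, -1.97 and -3.36 in high-amylose seed and at -1.59 and -1.08 in waxy seed. At this probe, the brighter of 2, all high-amylose values lay below both waxy values, with high-amylose replicate 3 not well above background. The difference was -1.02 (SE 0.55), which did not pass (limma adjusted p = 1.00, unadjusted p = 0.0960). It was -0.85 with the mean over probes, -0.52 without high-amylose replicate 3, -0.40 with replicate 1 as the only high-amylose array and -0.10 under normexp.

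The gibberellin receptor GID1 was at -1.20 (SE 0.85), with high-amylose replicates 2 and 3 not well above background, and at -2.15 to -0.52 when 1 array was left out. The kinase SnRK1A, which acts in sugar starvation signalling, was at -0.85 (SE 0.83), with high-amylose replicate 3 not well above background, and at 0.00 without that array. RASI was at 0.27 (SE 0.55).

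MYBS3, a repressor of sugar-regulated amylase genes, was the other of 2 among 7 regulators at which the groups did not overlap, against 13.6% of all tested loci, and 5.03% with high-amylose seed lower as at these 2. It is named after its values were seen. It stood at 0.29, 0.23 and 0.28 in high-amylose seed and at 0.41 and 0.57 in waxy seed, a difference of -0.22 (SE 0.40, limma adjusted p = 1.00).

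**Figure D4:**
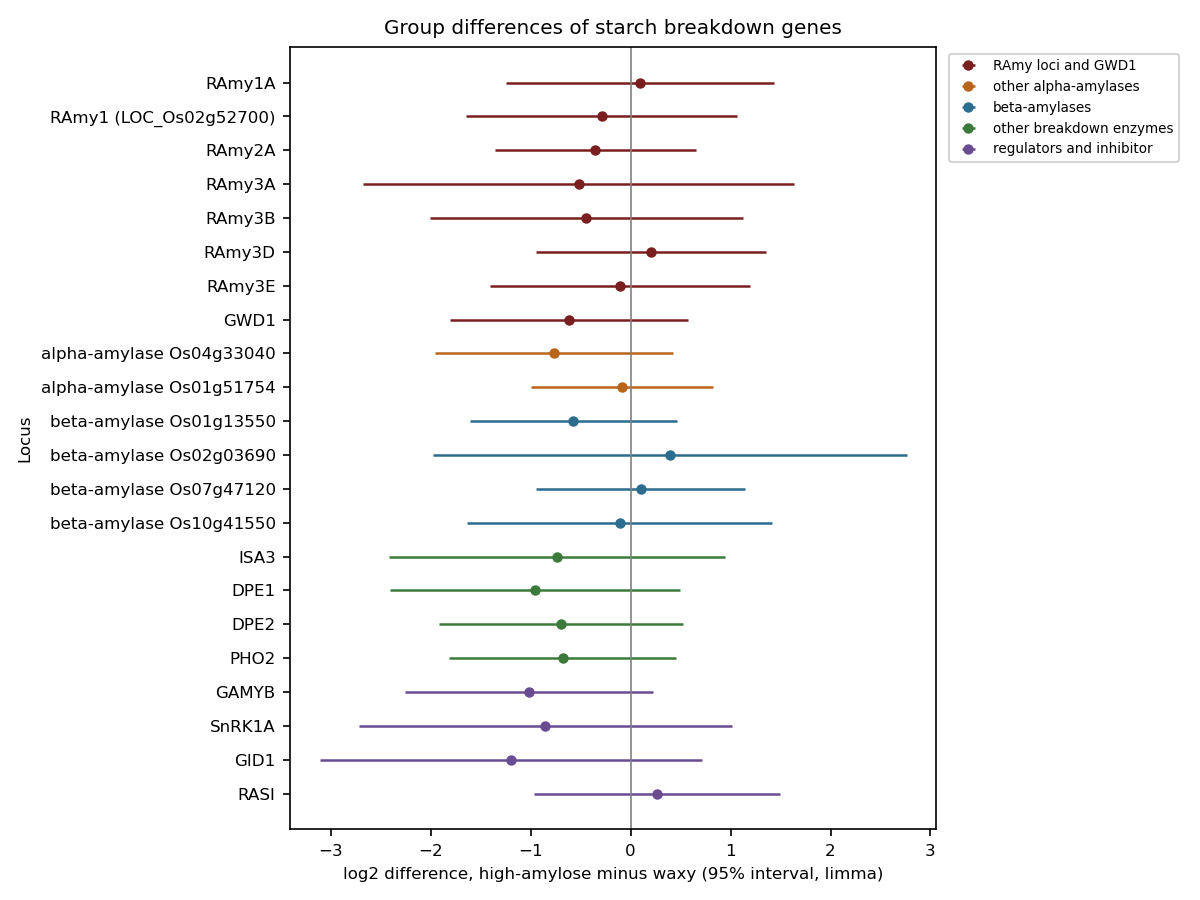
Log2 difference, high-amylose minus waxy (x axis), with its 95% limma interval for the 8 tested RAmy and GWD1 loci and for the loci with the largest differences in each other list (y axis), coloured by list. All intervals include 0, and those of GID1, RAmy3A and the beta-amylase Os02g03690 are among the widest.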

How the data were processed

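The deposited scanner files hold spot intensity, which per the file headers came from Feature Extraction 11.5.1.1 under protocol GE1_1105_Oct12. That processed signal had background removed and was detrended on each array alone, with no step between arrays. The headers name grid build IRGSP5. Coordinates were not used, and a chromosome is the one in the locus name. The 0 or 1 flags for spots well above background, saturated (0 spots) or outlying are also deposited by the authors. A table of log2 values deposited by the authors served as an alternative. For it the submitters' processing notes name limma but no normalization. Its differences between arrays followed quantile-normalized intensity (r of 0.9996 or above across probes). Its scale and direction are thus settled, the baseline of each probe is unknown, and its column medians were -0.0172, 0.0395, 0.0270, -0.0227 and 0.00414.

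Control spots were left out and spots of a probe averaged without outlier spots. A probe was tested if well above background on at least 2 arrays (35660 of 59676 probes). The probe with the highest mean stood for a locus (28963 loci), and probes were also tested apart. High-amylose minus waxy was fitted over all 5 arrays (limma 3.58.1, R 4.3.3), two-sided, and a locus passed when its Benjamini-Hochberg adjusted p was under 0.05. The median SE of a log2 difference was 0.462. With 10 splits of 5 arrays an exact permutation test cannot go below 0.1. The fit was run on simulated data with independent noise at each locus. Those data held no scan-date or array-wide effect, so the run does not check the fit against such effects. Figures used Python 3.11.15 and matplotlib 3.10.9.

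The files give locus names only. Gene names are those in customary use, and 24 of 56 listed loci, 6 of the 9 members among them, had their name in RefSeq (assembly ASM3414082v1, used for names and gene order), each on the chromosome of its locus. The rule for the 9 members and the other lists rest on function, and both were chosen with earlier results of these data known. Every RAmy and GWD1 probe is named, with the 4 largest differences of each other list and the 3 nearest profiles to GWD1 and to RAmy3E, the tested member amylase of highest mean signal.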

Additional observations from a re-analysis of the deposited data

How the results depend on the processing

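No member and no other listed breakdown gene or regulator changed its side of the threshold in any fit run. Over 114 alternative values for the members, 101 kept their sign and 13 did not, with limma adjusted p-values of 0.684 to 1.00. RAmy2A and GWD1 kept their sign in all 14. Some of these alternatives could not differ. A changed probe filter left each member's difference as it was, and so did averaging over probes at loci with 1 probe. The term for high-amylose replicates 2 and 3 gave the same values as leaving both out. The counts of kept signs thus overstate stability. Arrays were few and the intervals wide, and dim probes (RAmy1A, RAmy3B) were untested where all 5 arrays had to be well above background. The planned normexp on mean signals was not run, since the files used here hold median signals, which were used instead, chosen after seeing the data, as was leaving out high-amylose replicates 2 and 3. No paired analysis was possible because each array is another accession and the labels number none of them, the replicate numbers used here being names in deposition order.

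Leaving out 1 array at a time gave -0.38 to 0.62 for RAmy1A, -0.85 to 0.14 for LOC_Os02g52700, -1.69 to 0.65 for RAmy3A, -1.19 to 0.053 for RAmy3B, -0.23 to 0.50 for RAmy3D and -0.62 to 0.38 for RAmy3E. It gave -0.23 to 0.063 for LOC_Os01g51754, -0.90 to 1.17 for LOC_Os02g03690, -0.48 to 0.62 for LOC_Os10g41550, -0.16 to 0.41 for LOC_Os07g47120, -1.72 to 0.00 for SnRK1A and -0.013 to 0.78 for RASI. Lower members then numbered 3 to 8. A lone array left in a group was assumed to vary like the other group. Under normexp the sign turned for LOC_Os02g52700 (0.07), RAmy3B (0.14), LOC_Os01g51754 (0.045), LOC_Os07g47120 (-0.16), ISA3 (0.054) and GID1 (0.15). The normexp offset of 50 weighs most on dim probes, and differences moved both ways. RAmy1A went from 0.09 to 0.45 and GAMYB from -1.02 to -0.10. The median over all tested loci went from 0.03 to 0.10. With the mean over probes LOC_Os01g51754 was at 0.053.

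With a term for high-amylose replicates 2 and 3, and equally with both left out, RAmy3D was at -0.38, LOC_Os04g33040 at 0.18, LOC_Os01g51754 at 0.087, LOC_Os02g03690 at -0.65, LOC_Os07g47120 at -0.52, DPE1 at 0.35, ISA3 at 0.95, DPE2 at 0.28, PHO2 at 0.05, GID1 at 0.71 and SnRK1A at 0.89, and 1 of 9 other breakdown enzymes was lower. Both fits set high-amylose replicate 1 alone against the waxy arrays. With all 5 arrays well above background, 2 regulators were lower, fewer being tested.

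Over the whole array, 3 loci were called higher and 5 lower. Quantile scaling called 3 and the deposited log2 values 3, all lower, and normexp 1, lower. The filter on all 5 arrays called 21, 11 of them higher. With the term, or without high-amylose replicates 2 and 3, limma called 0, with 1165 and 1666 loci at an unadjusted p under 0.05. Leaving out 1 array gave 3 to 175, the highest without waxy replicate 2 and 70 without waxy replicate 1. With scan date as a random block (consensus correlation 0.180) 6 were called. The cause of these changes was not tested.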
